A study of Mus musculus with 8 samples.

Results

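The genes described here encode the proteases and the acidifying machinery of the lysosome: the cathepsins, the lysosome-associated membrane proteins Lamp1 to Lamp3, and the subunits of the vacuolar proton pump with its accessory proteins. They were chosen by name, as every gene on the array whose symbol is Cts followed by a single letter, is Lamp1, Lamp2 or Lamp3, or begins with Atp6v or Atp6ap. The rule found 46 of the 36095 genes named on the array, on 52 of its 55681 probes: 18 cathepsins, 3 Lamp genes and 25 pump genes. The rule uses no measured value, but it was set with earlier results of these data known. Of the 46, 31 had a probe that the scanner software marked as well above background on both arrays of at least 1 time, namely 9 cathepsins, 3 Lamp genes, 10 subunits of the V1 sector, 7 of the V0 sector and 2 accessory proteins. These 31 were tested among the 20839 genes that passed the same filter. Apart from Atp6v1e2, which was well above background on 5 arrays, the 31 were so on all 8, so the filter did not select genes for being high at one time only. The other 15 members were at background on all arrays, meaning never marked as well above it, with scaled signals between 1.99 and 13.6 over their 16 probes. They were Ctsc, Ctse, Ctsg, Ctsh, Ctsj, Ctsm, Ctsq, Ctsr, Ctss, Atp6ap1l, Atp6v0d2, Atp6v0e2, Atp6v1b1, Atp6v1c2 and Atp6v1g3, and several of them are known for their use in particular cell types, such as Ctss in antigen-presenting cells, Ctsj, Ctsm, Ctsq and Ctsr in placenta, Atp6v0d2 in osteoclasts and Atp6v1b1 in kidney.

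The arrays were of embryonic fibroblasts from mice without Csk, which keeps Src family kinases inactive by phosphorylating their tail. All 8 arrays, the 0 h controls included, came from these Csk-/- cells carrying a c-Src vector, pBKT2-c-Src, which doxycycline at 1 µg/ml switches on. Total RNA was measured after 0, 6, 24 and 72 h of induction on 1-colour arrays, with 2 arrays per time. The labels do not say whether the duplicates came from separate cultures, nor whether the cells are 1 clone, so each p-value reflects how far these particular arrays scatter, and that scatter may be technical. No array of doxycycline without the vector was analysed here. The effects of c-Src, of doxycycline, of time in culture and of the slide column, which followed time, cannot be told apart. The Src probe read 149 and 166 at 0 h, 4186 and 4276 at 6 h, 3725 and 3765 at 24 h, and 3093 and 3081 at 72 h, which fits the labelled times. Csk was at background on all 8 arrays (2.03 to 3.1). Each array had 59305 spots that are not controls, of which 49.9% to 54.7% were well above background and none was saturated, and duplicates correlated across genes with r of 0.9964 to 0.9975. The fibroblast genes Col1a1 and Vim were abundant throughout, at 42919 to 62326 and 40186 to 64995. Of the 12 fibroblast markers listed, Thy1 was at background on every array. Postn was well above background on 2 arrays and Lum on 5. Of the 10 tested, 9 were lower and 1, Vim, was higher at 72 h than at 0 h. These were 90% and 10%, against 24.6% and 27.5% of all genes tested.

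The lysosome is the acidic compartment in which cells break down proteins, lipids and sugars delivered by endocytosis and autophagy. Its acidity is made by the vacuolar proton pump, whose cytosolic V1 sector hydrolyses ATP and whose membrane V0 sector passes protons. Cathepsins are made as inactive precursors and are cut to their active form in the acid lumen, and the heavily glycosylated Lamp proteins line the membrane. Many lysosomal genes carry an E-box, TCACGTG with flanking bases, to which the factors TFEB and TFE3 bind, and mTORC1 at the lysosomal surface holds these factors in the cytosol. In fibroblasts and tumour cells, cathepsins B, D and L are also known to be secreted and to cut extracellular matrix.

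RefSeq start-site windows, 250 bases before to 50 bases after each annotated start on GRCm38.p6, were given for 35 of the 46 members. TCACGTG, searched on both strands so that CACGTGA counts as the same motif, was in the windows of 7 of the 35 members (20%), against 4.29% of 27025 genes with such a window. In the other genes of the lists used below for comparison it was in 25 of 103 (24.3%). Those are the lists of lysosomal, sorting, pump, mTORC1 control and autophagy genes and of cathepsin inhibitors. Its shorter core CACGTG, which TCACGTG contains, was in those of 9 members (25.7%, against 8.09% of all genes), the additional ones being Ctsf and Ctsl. The AP-1 motif TGANTCA was in that of 1 member, Atp6v0a1 (2.86%, against 8.97%). The 7 stretches with TCACGTG are shown because several members share this motif, which the rule did not use. Capitals mark the match, and the strand is that of the gene.
Ctsa (chr2:164833740-164833772, + strand): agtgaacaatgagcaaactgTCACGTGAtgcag
Atp6v0b (chr4:117887330-117887386, - strand): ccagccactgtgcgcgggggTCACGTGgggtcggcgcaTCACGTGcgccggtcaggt
Ctsd (chr7:142387899-142387946, - strand): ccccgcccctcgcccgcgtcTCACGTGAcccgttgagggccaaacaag
Lamp1 (chr8:13159079-13159160, + strand): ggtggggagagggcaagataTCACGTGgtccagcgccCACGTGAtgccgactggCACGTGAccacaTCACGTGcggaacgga
Atp6v0d1 (chr8:105566050-105566079, - strand): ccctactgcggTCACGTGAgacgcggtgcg
Atp6v1a (chr16:44139364-44139411, - strand): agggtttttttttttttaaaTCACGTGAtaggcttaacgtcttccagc
Atp6v0e (chr17:26676387-26676416, + strand): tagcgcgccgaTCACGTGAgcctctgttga

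Lamp1 had 4 matches, all within the bases shown and ending 9 to 55 bases before the start. Atp6v0b had 2, ending 12 and 30 bases before it. In Ctsa a match ended 5 bases before the start and a further one, not shown, lay 4 bases after it, and in Ctsd a further one ended 238 bases before it. In Atp6v0d1 the match spanned the start, and in Atp6v0e it lay 2 bases after it. A match is a description of these letters and not a measured binding site, and 11 members had no window to search.

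Against 0 h, 12 of the 31 tested members were higher and 0 were lower at 6 h, 20 were higher and 3 lower at 24 h, and 20 were higher and 5 lower at 72 h (limma, Benjamini-Hochberg adjusted p under 0.05). Over all genes tested, 17.6% were called either way at 6 h (10.3% higher, 7.24% lower), 41.5% at 24 h (21.4% higher, 20.1% lower) and 52% at 72 h (27.5% higher, 24.6% lower). The members' shares called higher were 38.7%, 64.5% and 64.5%. The median log2 difference of the members was 0.15, 0.36 and 0.46 at the 3 times, and that of all genes 0.0048, -0.016 and 0.0016. At 6 h the members with an unadjusted p under 0.05 were 16 higher and 1 lower. The 12 members higher at 6 h were also higher at 24 h and at 72 h: Ctsb, Ctsd, Lamp3, Atp6v0b, Atp6v0c, Atp6v0d1, Atp6v1a, Atp6v1c1, Atp6v1d, Atp6v1e1, Atp6v1g1 and Atp6ap2. A further 7 passed the threshold at 24 and 72 h but not at 6 h: Ctsa, Ctsl, Lamp1, Lamp2, Atp6v1h, Atp6v0a2 and Atp6ap1. Ctsz was higher at 24 h only and Ctsw at 72 h only. Ctsf, Ctso and Atp6v1b2 were lower at 24 and 72 h, Ctsk and Atp6v1g2 at 72 h, and 5 members (Atp6v0a1, Atp6v0a4, Atp6v0e, Atp6v1e2 and Atp6v1f) were not called at any of these times. The 3 comparisons share the 0 h arrays.

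**Figure D1:**
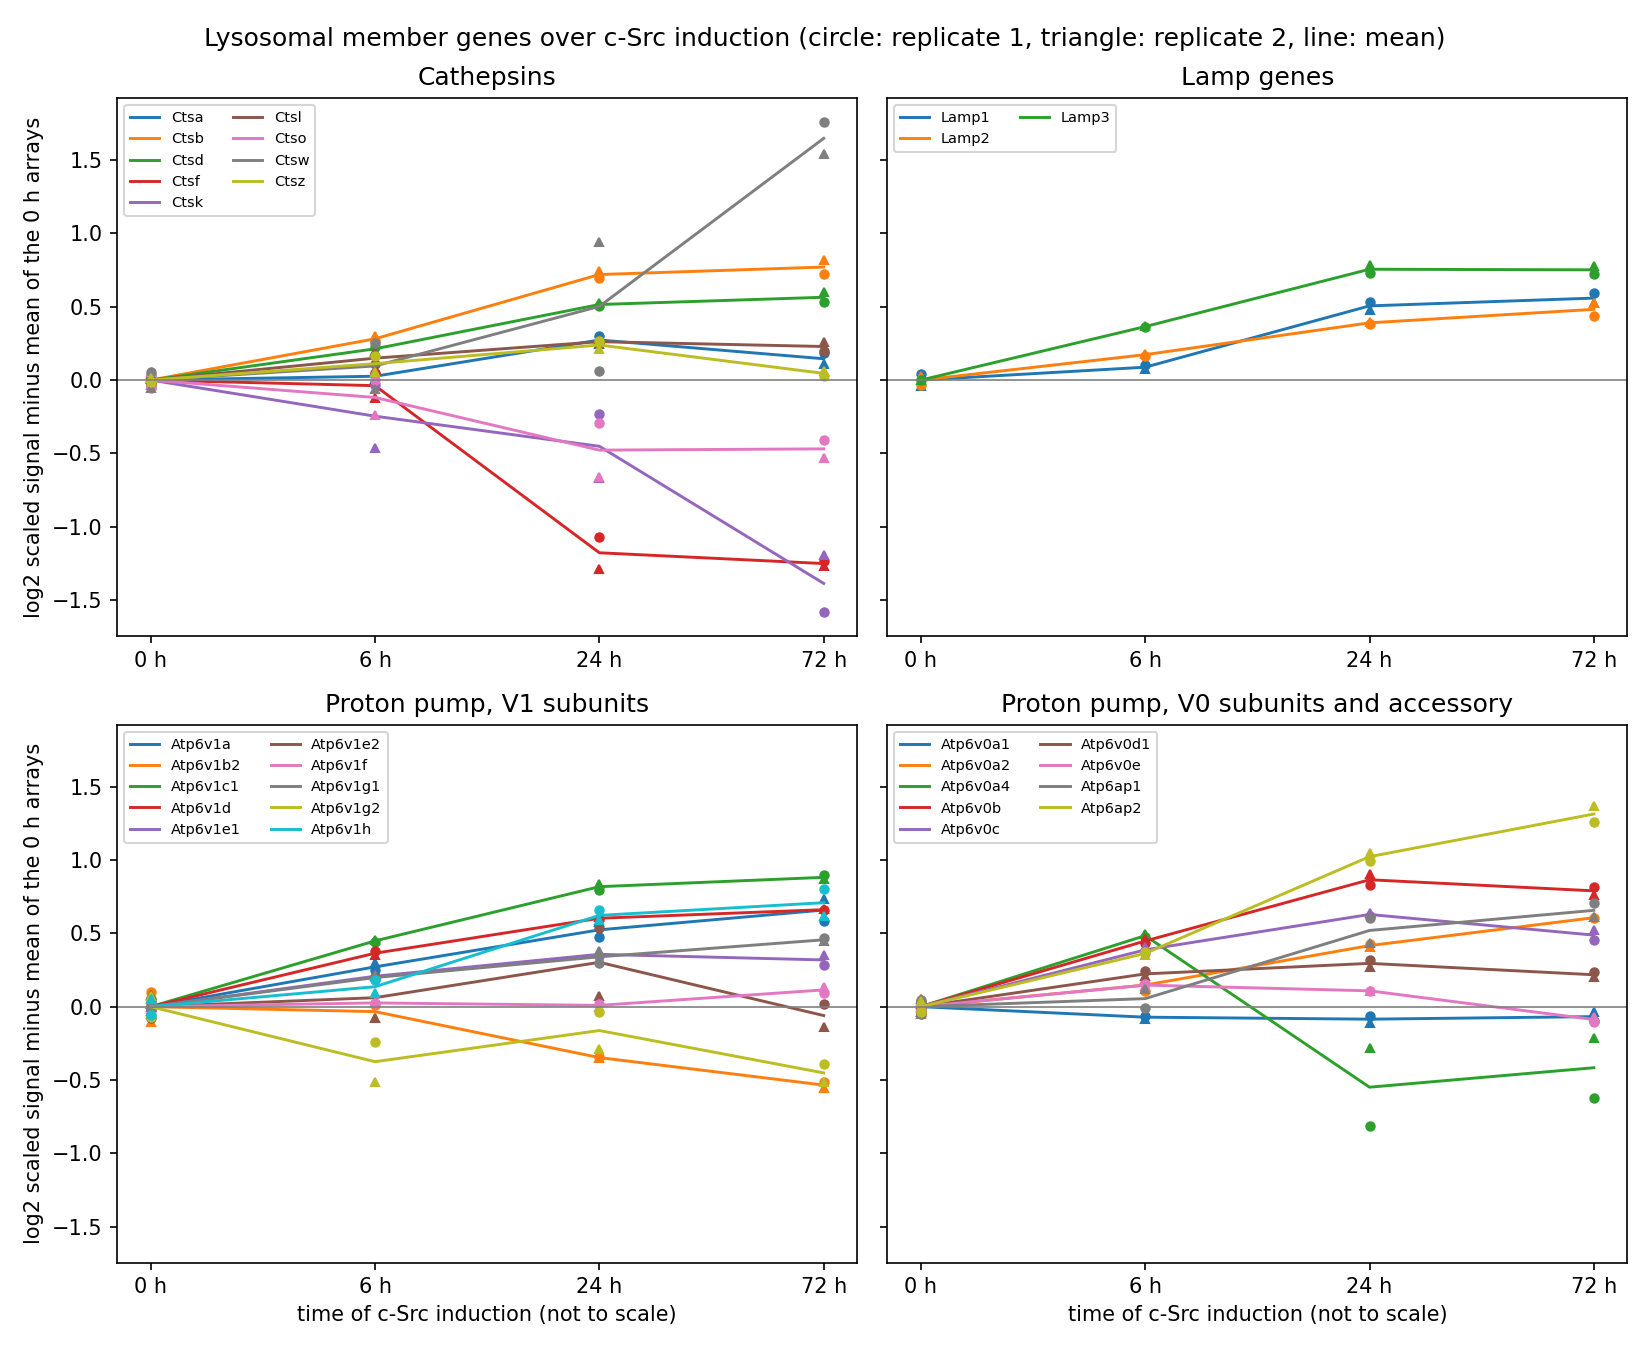
Log2 scaled signal of the 31 tested members relative to the mean of their 0 h arrays, at 0, 6, 24 and 72 h (times not to scale), in panels by role; circles are replicate 1, triangles replicate 2 and lines the means. Most members lie above 0 from 24 h on, Atp6ap2 the highest of the pump genes at 1.31 and Ctsw of the cathepsins at 1.65 at 72 h, while Ctsf and Ctsk lie below -1.2 at 72 h.

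The 6 h count rests on small differences. Without 1 of the arrays of 0 h or 6 h it was 4 to 6 (5 without 0 h replicate 1, 6 without 0 h replicate 2, 5 without 6 h replicate 1 and 4 without 6 h replicate 2), and it was 7 without either array of 72 h. The share of all genes called fell too, from 17.6% to between 5.84% and 7.73% without an array of 0 h or 6 h and to 11.9% without one of 72 h. Across the 21 alternative settings only Atp6v0b, Atp6v1c1 and Atp6v1d kept the call at 6 h in all of them, and Atp6v1a and Ctsd lost it without any one of the 8 arrays (adjusted p up to 0.193 and 0.158), whereas 18 of the 23 calls at 24 h and 19 of the 25 at 72 h were kept in all. With arrays scaled to their median instead of the 75th percentile, which put the median of all genes at 0.133 at 24 h and 0.183 at 72 h, the members called at 72 h were 21 higher and 2 lower. With the 75th percentile of only the probes detected on all arrays, which put it at -0.0786 and -0.0949, they were 18 higher and 7 lower.

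Values per array are given as scaled signals, the processed signal brought to a common 75th percentile of 379.7. They compare 1 probe across arrays and not different genes with each other. In whole cultures such as these, fewer cells with a transcript and less transcript per cell cannot be told apart.

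Among the 9 tested cathepsins, 5 rose and 2 fell at 24 h, and 5 rose and 3 fell at 72 h. At 24 h these were 55.6% and 22.2%, against 21.4% and 20.1% of all genes. At 72 h they were 55.6% and 33.3%, against 27.5% and 24.6%. The largest change of an abundant cathepsin was that of Ctsb, a cysteine endo- and exopeptidase. Ctsb read 11319 and 11532 at 0 h, 13711 and 14063 at 6 h, 18474 and 19162 at 24 h, and 18873 and 20133 at 72 h. The 24 h and 72 h arrays were each above every earlier array and overlapped with each other. Against 0 h the log2 difference was 0.28 ± 0.051 (SE; adjusted p = 0.0191) at 6 h, 0.72 (adjusted p = 0.000363) at 24 h and 0.77 (adjusted p = 0.000169) at 72 h, a 1.71-fold rise.

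Ctsd, the main aspartic protease of the lysosome, had a smaller rise along the same course. Its probe read 10067 and 10643 at 0 h, 12101 and 11897 at 6 h, 14664 and 14927 at 24 h, and 14952 and 15676 at 72 h. No array of a later time overlapped with those of an earlier one. The log2 difference from 0 h was 0.21 at 6 h (limma, adjusted p = 0.0401), 0.52 at 24 h (adjusted p = 0.000916) and 0.56 at 72 h (adjusted p = 0.000425). A second Ctsd probe gave 0.08 at 6 h (limma, adjusted p = 0.579 over all probes), 0.55 at 24 h and 0.44 at 72 h.

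Ctsl, a cysteine endopeptidase abundant in fibroblasts, changed little. Its signals were 78704 and 79249.8 at 0 h, 85029 and 90239 at 6 h, 93586 and 95823 at 24 h, and 90782 and 94367 at 72 h. The log2 difference was 0.26 (adjusted p = 0.00907) at 24 h and 0.23 (adjusted p = 0.0116) at 72 h, and with a normexp background correction and quantile scaling it was 0.11 (adjusted p = 0.239) and 0.01 (adjusted p = 0.898). The 72 h call was also lost without 0 h replicate 1 or 72 h replicate 2 (adjusted p = 0.0528 to 0.0686). Ctsz, a carboxypeptidase, was 0.24 higher at 24 h (adjusted p = 0.0159) and differed by 0.05 at 72 h (adjusted p = 0.512), and the 24 h call was lost under 8 of 21 settings, 3 of which left out 1 array (0 h replicate 1, 0 h replicate 2 or 24 h replicate 1, adjusted p = 0.0531 to 0.073).

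The probes of Ctsa, the protective protein that stabilises lysosomal galactosidase and sialidase, did not give 1 answer. The brighter one, at 18275 to 22599, was 0.27 higher at 24 h (adjusted p = 0.00657) and 0.15 higher at 72 h (adjusted p = 0.0464), a call that was lost without any one of the 8 arrays (adjusted p = 0.0536 to 0.212). The dimmer one, at 57.1 to 82.6, had a log2 difference of 0.01 at 24 h and -0.36 at 72 h (adjusted p = 0.0264 over all probes).

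Ctsf, Ctsk and Ctso fell. Ctsf, a cysteine protease with a long propeptide, read 382 and 394 at 0 h, 401 and 356 at 6 h, 185 and 159 at 24 h, and 165 and 161 at 72 h. The 0 h and 6 h arrays lay together and the 24 h and 72 h arrays lay together, with no overlap between the 2 pairs of times. Ctsf was 2.26-fold lower at 24 h (log2 difference -1.18 ± 0.093, adjusted p = 0.000494) and 2.38-fold lower at 72 h (adjusted p = 0.000236), and the calls were kept in all 21 settings. Its fall took place between 6 and 24 h (log2 difference -1.14, adjusted p = 0.00152).

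Ctsk, the collagen-cutting cathepsin best known from osteoclasts and also made by fibroblasts, was dim. It read 70.2 and 67.2 at 0 h, 67.2 and 49.9 at 6 h, 58.4 and 43.2 at 24 h, and 23 and 30 at 72 h. Only the 72 h arrays stood below all the others. The log2 difference at 72 h was -1.39 ± 0.217 (adjusted p = 0.00332) and shrank to -0.64 and -0.59 under the normexp background corrections. Of the osteoclast markers, Calcr and Dcstamp were at background on all 8 arrays, and the other 5 of 7 were above it on at least 1. Their summed signal was 661 to 682 at 0 h and 425 to 435 at 72 h, and 3 of the 5 tested (Acp5, Itgb3 and Nfatc1) were lower at 72 h, as were 9 of 10 fibroblast markers. These were 60% of the tested osteoclast markers and 90% of the fibroblast markers, against 24.6% of all genes. The part of these markers in the fall of Ctsk was not tested. Ctso, a broadly expressed cysteine protease that read 57.4 and 61.9 at 0 h and 44.9 and 41.3 at 72 h, fell by 0.48 at 24 h (adjusted p = 0.0426) and by 0.47 at 72 h (adjusted p = 0.0377) on the log2 scale. These calls were lost under 10 and 8 of 21 settings. Leaving out either array of 0 h or of 72 h ended both (adjusted p up to 0.157 and 0.151), and leaving out 24 h replicate 2 ended the 24 h call.

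The largest late rise was that of Ctsw, a cathepsin known from cytotoxic lymphocytes. Its probe read 39.6 and 36.8 at 0 h, 45.5 and 36.6 at 6 h, 39.9 and 73.3 at 24 h, and 129 and 111 at 72 h. The duplicates of 24 h disagreed, 1 lying among the earlier arrays, and both 72 h arrays were above all the others. The log2 difference at 72 h was 1.65 ± 0.287 (adjusted p = 0.00506) and 0.94 and 0.89 under the normexp corrections. Markers of lymphoid and cytotoxic cells summed to 1451 to 1501 at 0 h and 1512 to 1618 at 72 h, with Cd3g, Cd8a and Klrb1c at background on every array and 0 of the 5 tested called at 72 h (limma; 0 at any of the 3 times). Cd4 (591 to 693), Nkg7 (378 to 442), Prf1 (182 to 329) and Cd3e (113 to 148) were well above background on all 8 arrays. Their part in the rise of Ctsw was not tested.

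**Figure D2:**
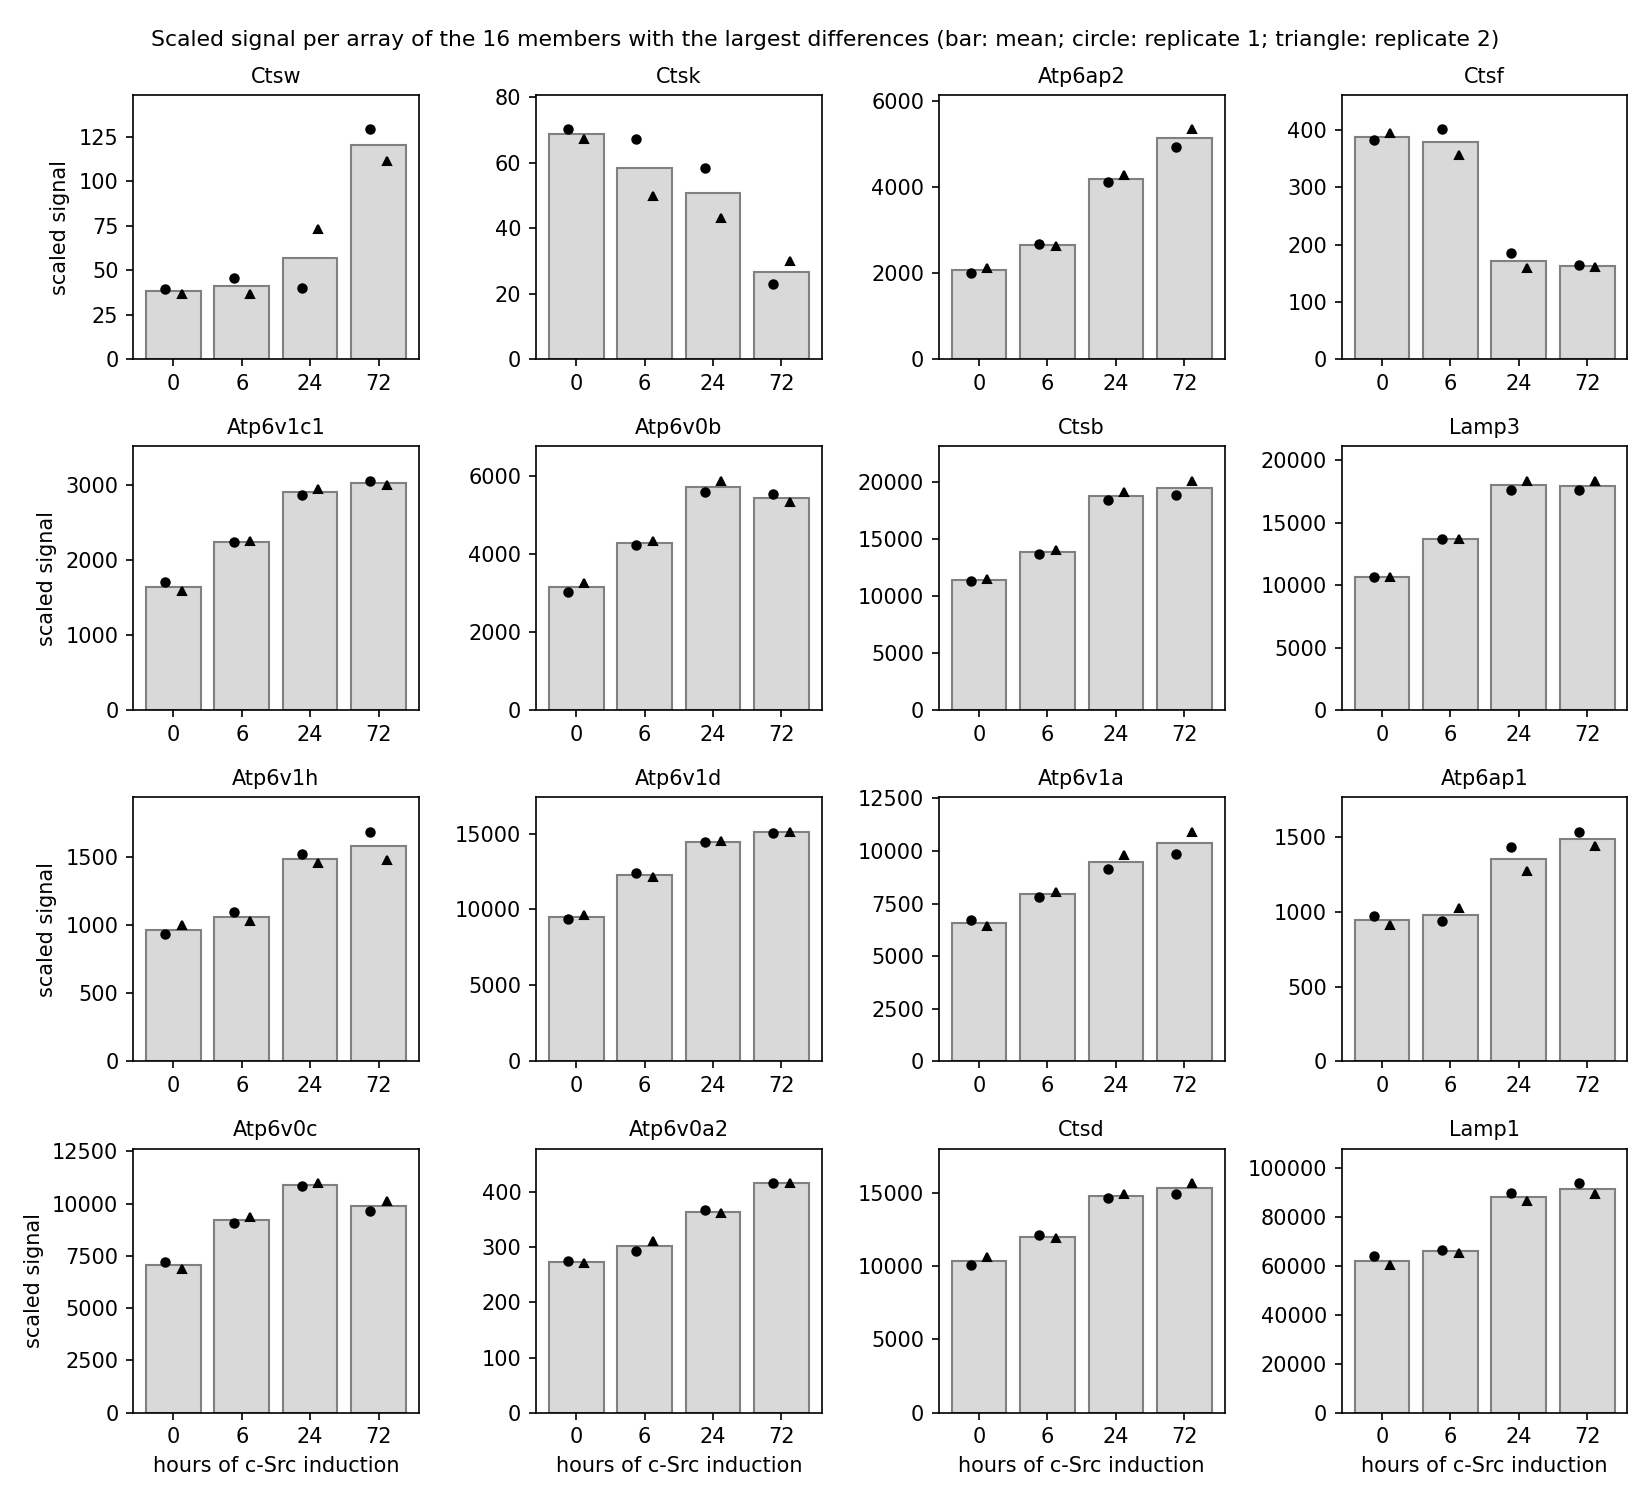
Scaled signal on each array, against hours of c-Src induction, of the 16 members with the largest called differences from 0 h; bars are means of 2 arrays, circles replicate 1 and triangles replicate 2, and each panel has its own axis from 0. In Atp6ap2 the arrays go from 2011 and 2115 at 0 h to 4927 and 5334 at 72 h, and in Ctsf from 382 and 394 to 165 and 161.

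The membrane glycoproteins rose. Lamp1, which with Lamp2 makes up much of the protein of the lysosomal membrane, read 63960.2 and 60580.5 at 0 h, 66757 and 65553 at 6 h, 90134 and 86679 at 24 h, and 94079 and 89397 at 72 h. Its 24 h and 72 h arrays were above all earlier ones and overlapped. The log2 difference was 0.09 (adjusted p = 0.312) at 6 h, 0.51 ± 0.053 (adjusted p = 0.00117) at 24 h and 0.56 (adjusted p = 0.000521) at 72 h, and the step from 6 to 24 h was 0.42 (adjusted p = 0.00468). Lamp2, which also serves chaperone-mediated autophagy, read 12119 and 12646 at 0 h and 16770.1 and 17835 at 72 h, with a log2 difference of 0.39 at 24 h (adjusted p = 0.00231) and 0.48 at 72 h (adjusted p = 0.000719). A second Lamp2 probe gave 0.25 and 0.38.

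The probe named Lamp3, a member of the family made by dendritic and lung cells, lists an accession of Ppid besides one of Lamp3, and it is the only member probe of 52 that names 2 genes. It read 10653 and 10663 at 0 h, 13716 and 13729.7 at 6 h, 17640.4 and 18361 at 24 h, and 17590.1 and 18308 at 72 h, a log2 difference of 0.76 at 24 h and 0.75 at 72 h. The 4 probes of Ppid, a cyclophilin, rose by 0.57 to 0.91 at 24 h and by 0.46 to 0.88 at 72 h. The signal cannot be assigned to Lamp3. Without this probe, 11 of 30 members were higher at 6 h, 19 at 24 h and 19 at 72 h, and 0, 3 and 5 were lower.

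Of the 10 tested V1 subunits, 6 rose and 1 fell at 24 h, and 6 rose and 2 fell at 72 h. At 24 h these were 60% and 10%, against 21.4% and 20.1% of all genes. At 72 h they were 60% and 20%, against 27.5% and 24.6%. The catalytic hexamer of V1 is made of A and B subunits, and these went opposite ways. Atp6v1a, the ATP-hydrolysing A subunit, read 6702 and 6439 at 0 h, 7801 and 8058 at 6 h, 9119 and 9783 at 24 h, and 9863 and 10909 at 72 h, with no overlap between times. Its log2 difference was 0.27 at 6 h (adjusted p = 0.0483), 0.52 at 24 h (adjusted p = 0.00245) and 0.66 at 72 h (adjusted p = 0.000719), and a second probe gave 0.63 at 72 h.

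Atp6v1b2, the B subunit of most cells and the only B isoform well above background here, read 1276 and 1107 at 0 h, 1196 and 1127 at 6 h, 938 and 930.5 at 24 h, and 833 and 808 at 72 h. The arrays of 0 h and 6 h overlapped and those of 24 h and 72 h were lower. The log2 difference was -0.35 ± 0.077 at 24 h (adjusted p = 0.0158) and -0.53 at 72 h (adjusted p = 0.00246). With median scaling it was -0.20 (adjusted p = 0.266) and -0.35 (adjusted p = 0.0583), and the 24 h call was also lost without either 24 h array (adjusted p = 0.0557 and 0.0637). The difference between Atp6v1a and Atp6v1b2 itself was not tested.

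Among the stalk and regulatory subunits, Atp6v1c1, which joins the stalks, read 1699 and 1586 at 0 h, 2232 and 2248 at 6 h, 2855 and 2934 at 24 h, and 3052 and 2998 at 72 h. Every later time was above every earlier one, and the log2 difference went from 0.45 (adjusted p = 0.00507) through 0.82 (adjusted p = 0.000253) to 0.88 (adjusted p = 0.000104). Atp6v1d, the central shaft, read 9395 and 9666 at 0 h, 12380.4 and 12157 at 6 h, 14413 and 14532 at 24 h, and 15026 and 15116 at 72 h, again with no overlap. Its log2 difference was 0.36 at 6 h, 0.60 at 24 h and 0.66 at 72 h (adjusted p = 0.00512, 0.000322 and 0.000135).

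Atp6v1h, a regulatory subunit needed for activity, read 933 and 1005 at 0 h, 1096 and 1033 at 6 h, 1526 and 1456 at 24 h, and 1688 and 1484 at 72 h. Both 6 h arrays lay above both of 0 h, with a log2 difference of 0.14 (95% interval -0.06 to 0.34, adjusted p = 0.304). The difference from 0 h was 0.62 at 24 h (adjusted p = 0.00238) and 0.71 at 72 h (adjusted p = 0.000998). The peripheral stalk subunits Atp6v1e1 and Atp6v1g1 rose by smaller amounts, 0.36 and 0.34 at 24 h and 0.32 and 0.46 at 72 h. Their restricted isoforms did otherwise: Atp6v1g2, the neuronal G isoform, read 32.3 and 35.7 at 0 h and 25.9 and 23.8 at 72 h and fell by 0.45 at 72 h (adjusted p = 0.0305, lost under 10 of 21 settings and without either array of 0 h or 72 h, with an adjusted p of up to 0.131), and Atp6v1e2, known from testis, was at 16.5 to 26.3 and not called. Atp6v1f, a small subunit of the central stalk, stayed between 24454 and 27148, and its 95% intervals against 0 h ran from -0.10 to 0.11 at 24 h and from 0.01 to 0.22 at 72 h.

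Of the 7 tested V0 subunits, 4 rose at 24 h and at 72 h and 0 fell, with 1 lower at an unadjusted p under 0.05 at 24 h. The 4 were 57.1%, against 21.4% of all genes at 24 h and 27.5% at 72 h. Of all genes, 20.1% and 24.6% were lower at these times. Atp6v0b, a subunit of the proton-carrying ring, had the largest called difference from 0 h of the V0 genes. It read 3037 and 3252 at 0 h, 4243 and 4330.3 at 6 h, 5575 and 5879 at 24 h, and 5528 and 5339.5 at 72 h. The 6 h arrays lay between those of 0 h and those of the later times, with log2 differences of 0.45 at 6 h (adjusted p = 0.00657), 0.87 at 24 h (adjusted p = 0.00028) and 0.79 at 72 h (adjusted p = 0.000203). Atp6v0c, the main ring subunit, read 7224 and 6894 at 0 h, 9091 and 9372 at 6 h, 10829 and 10994 at 24 h, and 9650.4 and 10148 at 72 h. Its log2 difference was 0.39, 0.63 and 0.49 (adjusted p = 0.00733, 0.000508 and 0.000698), and the step from 24 to 72 h of -0.14 was not called (adjusted p = 0.102).

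The a subunits, which steer the pump to its membrane, differed in their calls. Atp6v0a2, the isoform of Golgi and endosomes, read 275 and 272 at 0 h, 294 and 312 at 6 h, 368 and 362 at 24 h, and 416 and 417 at 72 h, with no overlap between times. It was 0.42 higher at 24 h (adjusted p = 0.00144) and 0.61 at 72 h (adjusted p = 0.000258), and its 24 h value was 0.25 and 0.26 under the normexp corrections. The a3 isoform, which goes by the name Tcirg1 and so lies outside the rule, read 1291 and 1417 at 0 h and 1848 and 1803 at 72 h, with log2 differences of 0.36 at 24 h (adjusted p = 0.00769) and 0.43 at 72 h (adjusted p = 0.00307). Atp6v0a1, the isoform abundant in neurons, read 3546 to 3913 on the 8 arrays and was not called, with a 95% interval of -0.19 to 0.05 at 72 h. Atp6v0a4, the kidney isoform, read 70.6 and 67.4 at 0 h, 95.8 and 97.2 at 6 h, and 39.2 to 59.5 later, and was called only as lower at 24 h than at 6 h (log2 difference -1.03, adjusted p = 0.0174). The differences between isoforms were not tested.

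Atp6v0d1, which couples the ring to the V1 shaft, was 0.22 higher at 6 h, 0.30 at 24 h and 0.22 at 72 h (adjusted p = 0.0243, 0.00387 and 0.00896), and its 72 h call was lost under 4 of 21 settings, among them leaving out 72 h replicate 1 (adjusted p = 0.0562). Atp6v0e, a small membrane subunit, read 16749 to 18721 up to 24 h and 15623 and 16002 at 72 h. It was not called against 0 h and was lower at 72 h than at 24 h (log2 difference -0.20, adjusted p = 0.0239).

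Of all pump genes, Atp6ap2 rose most at 24 h and at 72 h. It encodes the (pro)renin receptor, an accessory protein needed to assemble the pump. The probe, at chrX:12193624-12193683 in the mm9 coordinates of the array design, read 2011 and 2115 at 0 h, 2673 and 2632 at 6 h, 4115 and 4267 at 24 h, and 4927 and 5334 at 72 h. Each time was above all earlier ones. The log2 difference from 0 h was 0.36 ± 0.058 at 6 h (adjusted p = 0.0135), 1.02 at 24 h (adjusted p = 0.000205) and 1.31 at 72 h (adjusted p = 5.93e-05), with a 95% interval of 1.17 to 1.46 at 72 h. It was also 1 of 3 members that rose between 24 and 72 h (0.29, adjusted p = 0.0223).

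Atp6ap1, the other accessory protein, read 974 and 913 at 0 h, 937 and 1024 at 6 h, 1431 and 1277 at 24 h, and 1536 and 1439 at 72 h. The arrays of 0 h and 6 h overlapped, with a log2 difference of 0.05 (adjusted p = 0.691). The later arrays were higher by 0.52 at 24 h (adjusted p = 0.00471) and 0.66 at 72 h (adjusted p = 0.00142), and a second probe gave 0.41 and 0.59.

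**Figure D3:**
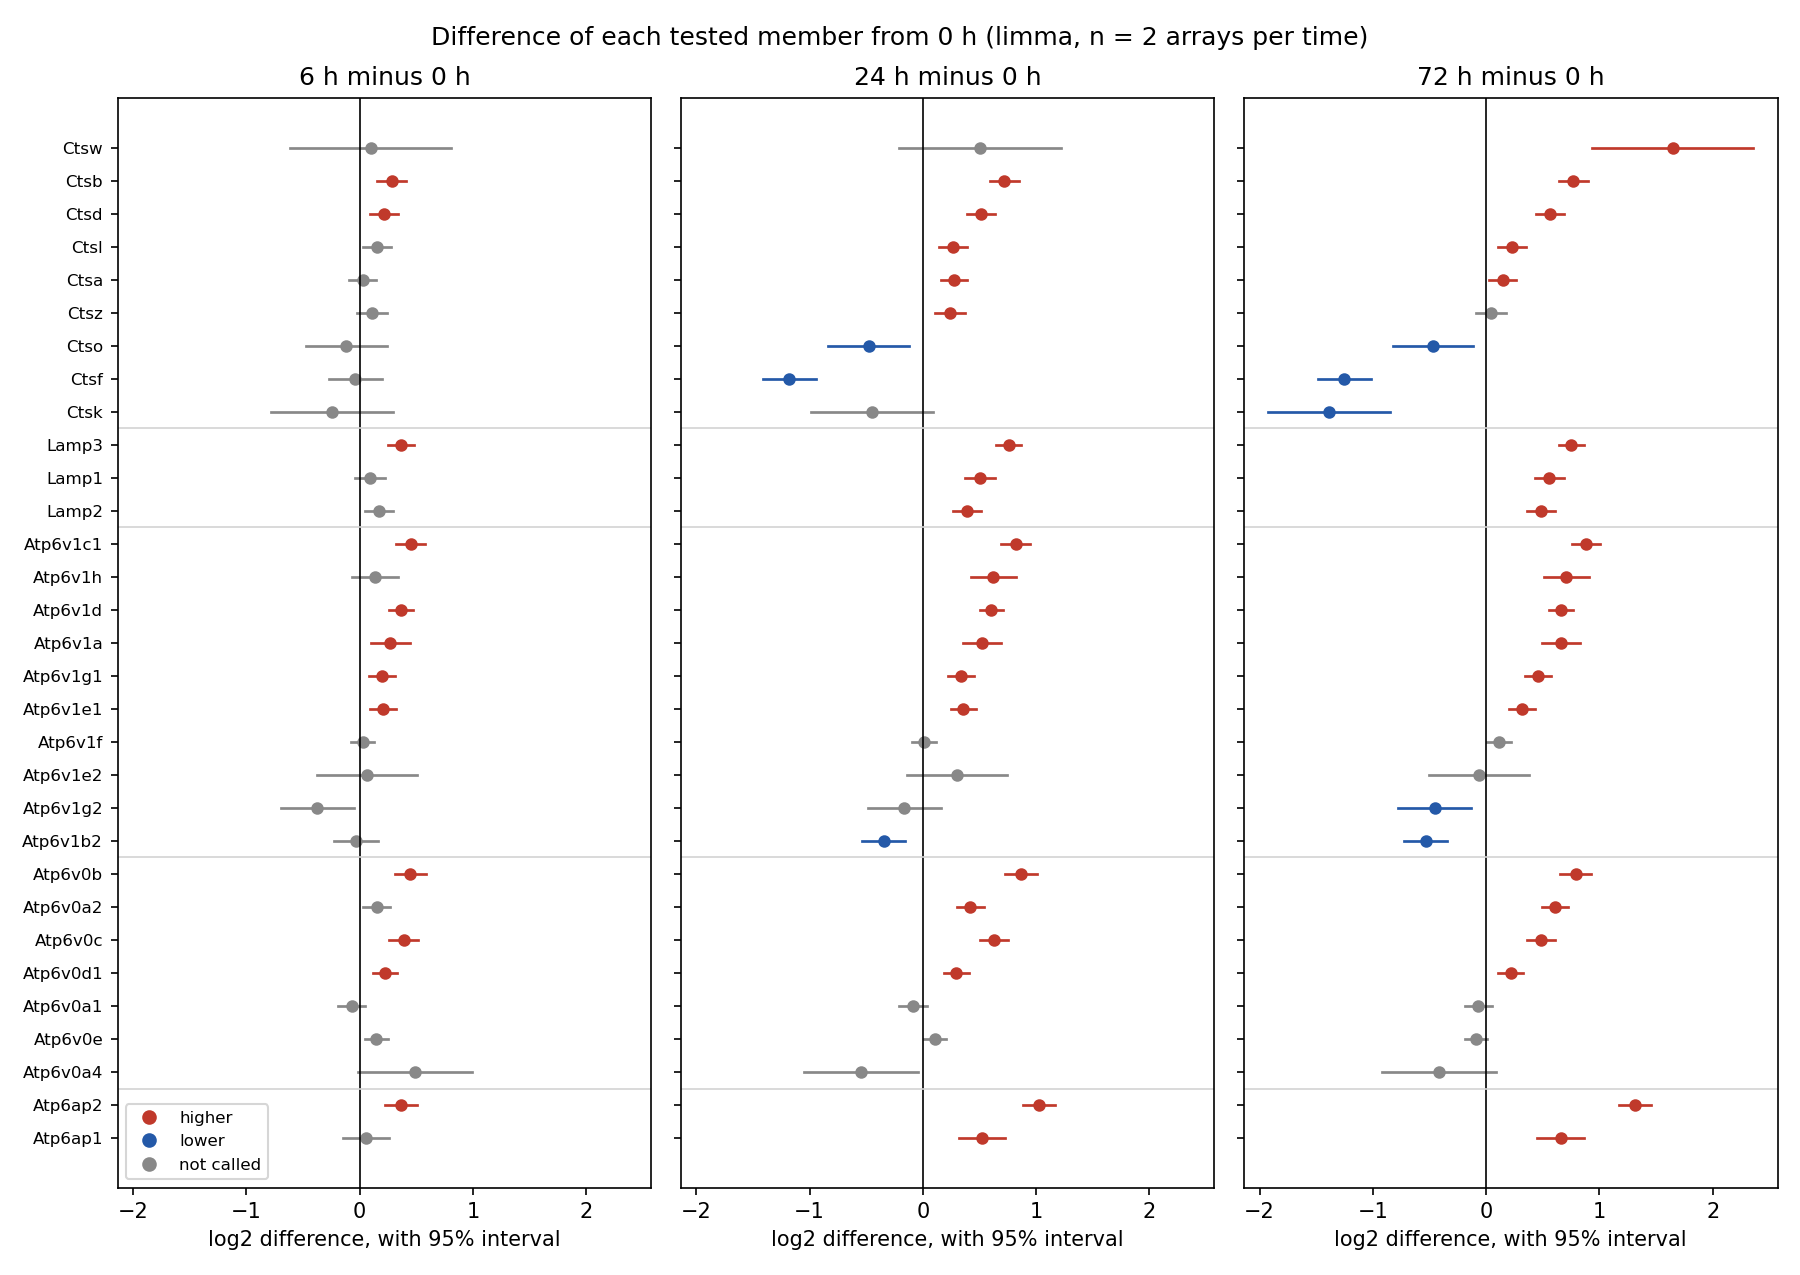
Log2 difference from 0 h of each of the 31 tested members at 6, 24 and 72 h, grouped by role (cathepsins, Lamp genes, V1, V0, accessory proteins), with 95% intervals from the fit over all 8 arrays; red is called higher, blue called lower and grey not called. The counts called are 12, 23 and 25, and the intervals of the dim members Ctsw, Ctsk, Atp6v0a4 and Atp6v1e2 are the widest.

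Between successive times, the step from 6 to 24 h held the most calls among the members. In it 15 members rose and 3 (Ctsf, Atp6v1b2 and Atp6v0a4) fell, against 26.2% of all genes called either way, 12.6% higher and 13.6% lower. The count of 18 was 8 without 6 h replicate 1 and 9 without 6 h replicate 2, where the share of all genes called was 12.6% and 12.7%. From 24 to 72 h, 3 members rose (Atp6ap2, Atp6v0a2 and Ctsw) and 2 fell (Ctsk and Atp6v0e), which is 16.1% of the members against 21.7% of all genes (10.8% higher, 10.9% lower). This count was 2 with median scaling, 2 without any one array of 0 h or 6 h, and 0 without 24 h replicate 1, 72 h replicate 1 or 72 h replicate 2, where 9.18%, 5.19% and 7.06% of all genes were called. At an unadjusted p under 0.05, 5 members were higher and 5 lower in this step.

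TCACGTG was in the windows of 6 of the 15 members that were called higher at 24 or 72 h and had a window (40%). It was in that of 1 of the 9 tested members with a window that were not called higher (11.1%). Of the 15 untested members, 11 had a window, and 0 of these held the motif. The 6 were Atp6v0b, Atp6v0d1, Atp6v1a, Ctsa, Ctsd and Lamp1, whose bases are printed above. The member with the largest rise among pump genes, Atp6ap2, was not among them. Of the 21 members called higher only 15 had a window, so absence from the 6 can mean no match or no window to search. Atp6v0e, which also holds the motif, was not called against 0 h. These shares are descriptions with no test.

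Transcripts of Tfeb and Tfe3, factors that bind this motif, were higher at 6 h and were not called at 24 or 72 h. Their part in the members' differences was not tested. Tfeb read 337 and 353 at 0 h, 427 and 421 at 6 h, 344 and 341 at 24 h, and 335 and 339 at 72 h. The 6 h arrays stood above all others, with a log2 difference from 0 h of 0.30 (adjusted p = 0.0106) at 6 h, -0.01 (adjusted p = 0.886) at 24 h and -0.03 (adjusted p = 0.579) at 72 h. Tfe3 was 0.28 higher at 6 h (adjusted p = 0.0199), with differences of 0.03 at 24 h and 0.10 at 72 h that were not called. Of the 18 tested genes of transcription and mTORC1 control at the lysosome, 8 were higher at 6 h, 6 at 24 h and 10 at 72 h. These were 44.4%, 33.3% and 55.6%, against 10.3%, 21.4% and 27.5% of all genes. Lower were 0, 1 and 3 (0%, 5.56% and 16.7%, against 7.24%, 20.1% and 24.6% of all genes). The largest differences at 72 h in that list were those of the folliculin complex. Flcn, which acts on the Rag GTPases that recruit mTORC1, was 0.63, 0.82 and 1.19 higher at 6, 24 and 72 h (adjusted p = 4.77e-05 at 72 h). Its partners Fnip1 and Fnip2 were 1.08 and 1.1 higher at 72 h.

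Other lysosomal genes were taken from lists of textbook genes, and their counts were not tested against those of the members. Of 28 sugar, lipid and sulfate hydrolases, 7 were higher and 5 lower at 24 h (25% and 17.9%, against 21.4% and 20.1% of all genes), and 12 and 6 at 72 h (42.9% and 21.4%, against 27.5% and 24.6%), with a median difference of 0.19 at 72 h. Neu1, the sialidase that Ctsa stabilises, was 0.74 higher at 24 h and 0.84 at 72 h, Hexa 0.66 and 0.90, and the acid ceramidase Asah1 0.50 and 0.81. Among 11 other proteases and helpers, 4 were higher and 4 lower at 72 h (36.4% each, against 27.5% and 24.6% of all genes). The carboxypeptidase Scpep1 was 1.03 higher and the peptidase Dpp7 0.78 higher, whereas Acp5, the tartrate-resistant phosphatase, was 1.34 lower (log2 difference -1.34, adjusted p = 6.03e-05).

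Of 18 lysosomal membrane and transport genes, 8 were higher and 3 lower at 24 h (44.4% and 16.7%, against 21.4% and 20.1% of all genes). At 72 h, 11 were higher and 3 lower (61.1% and 16.7%, against 27.5% and 24.6% of all genes), with a median of 0.29. Cd68, a Lamp family protein best known from macrophages, was 1.32, 1.78 and 2.81 higher at 6, 24 and 72 h (adjusted p = 0.000133 at 72 h). Macrophage markers summed to 6583 to 7028 at 0 h and 6728 to 7002 at 72 h, with 8 of 14 (Ptprc, Adgre1, Fcgr1, Fcgr3, Tyrobp, C1qa, Spi1 and Lyz2) at background throughout. Most of that sum was Itgam (5407 to 6335), which was not called at any of the 3 times. Of the 5 tested, 1 was higher at 6 h, 2 at 24 h and 1 at 72 h, and 0 were lower. The shares higher were 20%, 40% and 20%, against 10.3%, 21.4% and 27.5% of all genes. Csf1r, the receptor for colony-stimulating factor 1, read 373 and 403 at 0 h, 692 and 740.1 at 6 h, 706 and 656 at 24 h, and 500 and 549.7 at 72 h, all later arrays above those of 0 h. Its log2 difference was 0.88 at 6 h (adjusted p = 0.00258), 0.81 at 24 h (adjusted p = 0.000833) and 0.44 at 72 h (adjusted p = 0.00535), and Cd14 was 0.30 higher at 24 h (adjusted p = 0.0422). Their part in the rise of Cd68 was not tested. The chloride exchanger subunit Ostm1 was 1.06 higher and the calcium channel Mcoln1 0.99 higher at 72 h. Of 13 genes of sorting to the lysosome, 8 were higher at 24 h and at 72 h (61.5%, against 21.4% and 27.5% of all genes), with 0 and 1 lower, and the retromer subunits Vps26a, Vps29 and Vps35 were 0.64, 0.58 and 0.61 higher at 72 h. Of 10 further pump genes, 4 were higher and 1 lower at 72 h (40% and 10%, against 27.5% and 24.6% of all genes). The assembly factor Tmem199 was 0.65 higher and Rogdi 0.54 lower (log2 difference -0.54).

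**Figure D4:**
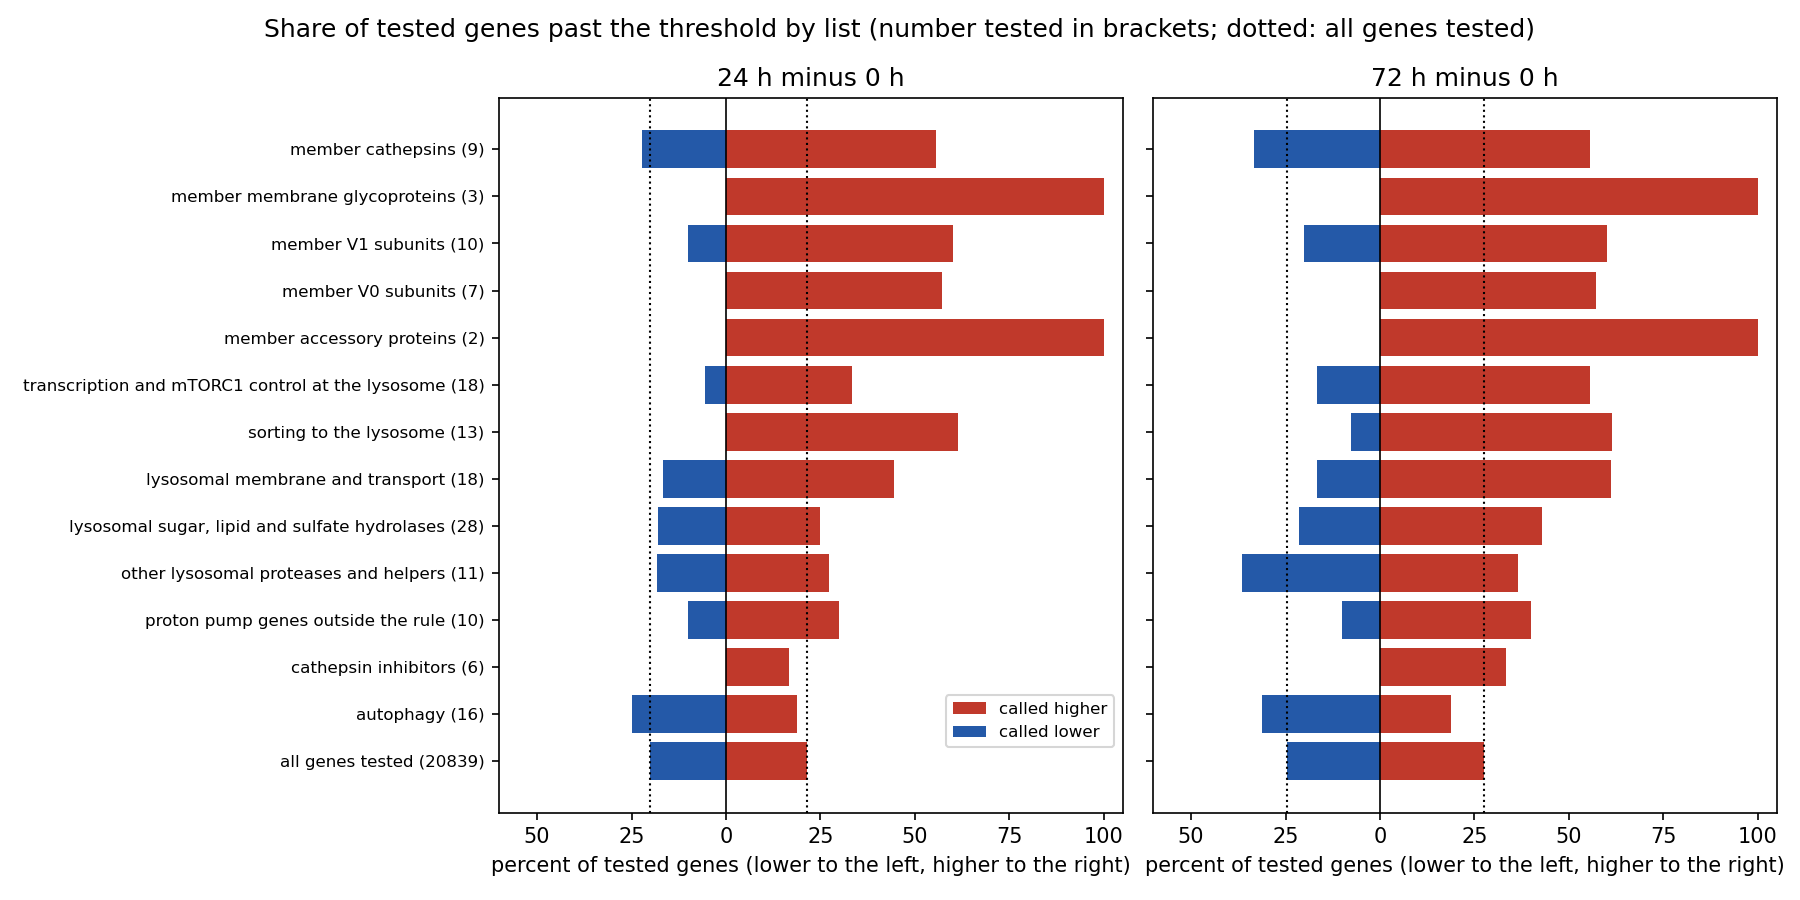
Percent of tested genes called higher (red, right) and lower (blue, left) at 24 h and 72 h against 0 h, for the member groups, the other lysosomal, mTORC1 control, cathepsin inhibitor and autophagy lists and all 20839 genes tested; the number tested is in brackets and dotted lines mark the shares over all genes. The member groups are called higher in 55.6% to 100% of genes at both times, against 21.4% and 27.5% of all genes. The groups at 100% are the 3 Lamp genes, whose Lamp3 probe also lists Ppid, and the 2 accessory proteins. Called lower at 24 h and 72 h are 22.2% and 33.3% of the cathepsins and 10% and 20% of the V1 subunits, against 20.1% and 24.6% of all genes.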

How the data were processed

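Total RNA from mouse embryonic fibroblasts at 4 times was measured on 8 one-colour arrays, 2 per time. The deposited scanner files hold a processed signal per spot, an intensity on a linear scale that the scanner software corrected for background but did not scale between arrays, per the file headers. Those headers name Feature Extraction 10.5.1.1 and mm9, and the submitters' processing notes name version 10.7.3.1. The deposited value table holds the same intensities rounded, and was an alternative source.

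Log2 signals minus each array's 75th percentile (370.3 to 393) were averaged over the spots of a probe, without outlier spots. A probe was kept if well above background on both arrays of at least 1 time (28609 of 55681 probes), and the brightest kept probe stood for its gene. Differences between times came from a limma fit (limma 3.58.1, R 4.3.3; 4 means, 8 arrays, 4 residual degrees of freedom, prior 1.7), adjusted by Benjamini-Hochberg over 20839 genes, with a threshold of 0.05 and a median standard error of 0.075. Scaled signals use a common percentile of 379.7. The fit was also run on simulated arrays with independent noise, which cannot show effects of technical duplicates or of slide position.

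The members and lists were chosen with earlier results of these data known. Values on every array are given for the 16 called members with the largest differences, and up to 3 called genes of each list are named, with Tfeb, Tfe3 and Tcirg1. No list was tested as a set. One marker of the lymphoid list is not reported here and is in no sum. All arrays lay on 1 slide, read in 1 scan, so no batch could be blocked. Where 1 array was left out, the remaining one of that time was assumed to vary like the other groups. The count without the Lamp3 probe was chosen after seeing the data. Alternatives were other scalings, background corrections, filters, probe rules, fits and leaving out each array. Promoter windows are RefSeq's, on GRCm38.p6.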

Additional observations from a re-analysis of the deposited data

How the results depend on the processing

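The counts of members called at 24 h and 72 h against 0 h stayed within 1.5 times of 23 and 25 under all 21 alternatives (19 to 25 and 20 to 25), and at 21 to 23 and 21 to 24 when 1 array was left out. The 6 h count of 12 was 7 with median scaling, quantile normalization, the percentile of probes detected on all arrays, or only the arrays compared, 6 with normexp and quantile normalization, 4 with no filter (46 members tested) and 4 to 10 when 1 array was left out. The 24 h minus 6 h count of 18 was 8 with no filter, 9 with only the arrays compared and 8 to 17 when 1 array was left out. The 72 h minus 24 h count of 5 was 2 with median scaling, 3 with normexp and quantile normalization, and 0 with no filter or only the arrays compared (limma; 7 members had an unadjusted p under 0.05 in each), and 0 to 3 when 1 array was left out. Its split of 3 higher and 2 lower was 2 and 3 with the percentile of probes detected on all arrays. With the mean of its probes, Ctsa at 72 h went from 0.15 to -0.11 (adjusted p = 0.17), because its dimmer probe fell. For 6 h against 0 h, 24 h against 6 h and 72 h against 24 h, the share of all genes called was also lower without any one array. For the other moves the cause was not tested.

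Deviations of same-numbered arrays from their time means correlated with r of 0.0557 to 0.171 over the 6 pairs of times, so the replicate numbers were not taken to pair the arrays. The replicate number is also the slide row. With it as a block, 12, 23 and 25 members were called at 6, 24 and 72 h against 0 h, 19 between 6 and 24 h and 4 between 24 and 72 h. No group had enough arrays for a test of outlying samples. Dim members (Ctsw, Ctsk, Ctso, Atp6v1g2, Atp6v1e2 and Atp6v0a4, under 130 in scaled signal) had the widest errors.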

Other observations

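Of 16 autophagy genes, 3 were higher and 4 lower at 24 h (18.8% and 25%, against 21.4% and 20.1% of all genes). At 72 h, 3 were higher and 5 lower (18.8% and 31.2%, against 27.5% and 24.6% of all genes), with a median difference of -0.04. Sqstm1, the autophagy receptor p62, was 0.79 higher at 24 h and 0.86 at 72 h (adjusted p = 0.00491), and Uvrag 0.41 and 0.64. Map1lc3b, the LC3 protein of the autophagosome membrane, fell by 0.22 at 24 h (adjusted p = 0.0333) and by 0.51 at 72 h (adjusted p = 0.00125) on the log2 scale. The difference between the autophagy list and the members was not tested.

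Of 11 natural inhibitors of cathepsins, 6 passed the filter. Of these, 1 was higher at 6 h, 1 at 24 h and 2 at 72 h, and 0 were lower. The shares higher were 16.7%, 16.7% and 33.3%, against 10.3%, 21.4% and 27.5% of all genes. Cst3, Cst6, Ctla2a and Stfa2 were not called against 0 h. Cstb, the cytosolic inhibitor of cathepsins B and L, was 0.37 higher at 6 h, 0.61 at 24 h and 0.68 at 72 h (adjusted p = 0.000373), and Serpinb6a was 0.29 higher at 72 h (adjusted p = 0.0202). Placental cathepsins with other symbol forms, such as Cts3 and Cts6, lie outside the rule and summed to 15.4 to 27.7 on an array. Trophoblast markers summed to 10963 to 14607 at 0 h and 11164 to 13208 at 72 h, and Tpbpa, Hand1 and Psg18 were at background on every array. Most of that sum was Gcm1 (10647 to 14368), which was not called at any of the 3 times, and Prl3b1 and Prl3d1 were also well above background on all 8 arrays. Of the 4 tested, Psg17 was 0.63 higher at 72 h (adjusted p = 0.00696) and Prl3b1 was lower at 24 h and 72 h (log2 difference -0.36 and -0.22, adjusted p = 0.0113 and 0.0492). Epithelial markers summed to 1207 to 1509 at 0 h and 1947 to 2017 at 72 h, and most of that sum was Krt8 (751 to 1546). Of the 5 tested, Krt8 and Krt18 were higher at 72 h (log2 difference 0.93 and 0.34). Krt19 and Esrp1 were lower (log2 difference -1.46 and -0.51). Epcam, Cdh1, Cldn3, Cldn4 and Ocln were at background on every array.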
